A study of Drosophila melanogaster with 32 samples.

Results

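The cytosolic ribosomal protein genes of Drosophila were followed in whole flies of 7 lines that each carry a single P-element insertion and of the control line they share. A gene was taken as a member when its symbol begins with RpL or RpS and a digit, or is RpLP0, RpLP1, RpLP2 or sta, and when a probe set on the array maps to that gene alone. By this rule 40 genes were found, of 11982 genes with such a probe set. The current gene table lists 92 symbols of this form, and the other 52 were not analysed here. Where a gene had several such probe sets the brightest on average was used, and 24 members belong to the large subunit and 16 to the small subunit. Among the 40, 26 have 1 gene for their protein by symbol and are called single-copy below, and 14 share their number with another ribosomal protein gene and are called copies.

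The lines were pyd, mub, crol, CG10990, CG9238, BG00817 and esg, each homozygous for its P-element, with the isogenic control. By the study's methods all 8 lines share the w1118 Canton S F background, so that the controls carry the white mutation as well, and the lines were chosen because they lived longer than the control in at least 1 sex. The insertion lies upstream of pyd and of CG9238, in an intron of mub and of CG10990, in an exon of crol and downstream of esg, and in BG00817 its exact site was not known. Each line is therefore 1 insertion in 1 stock. Pools of whole 42-day-old virgin-collected flies were profiled on Affymetrix arrays, with 2 arrays for each line and sex, 32 arrays in all. The methods describe 1 collection of flies for each line and sex, from which the 2 pools were made. The p-values therefore measure only the spread between these pools, not between separately raised flies. In whole-body RNA, fewer cells of a type and less RNA per cell cannot be told apart.

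Ribosomes are built from ribosomal RNA and about equal amounts of each ribosomal protein. The genes are transcribed in nearly every cell, and growth signalling through the Tor pathway controls their output mostly at the level of translation. Drosophila, unlike yeast, has 1 gene for most of these proteins. The exceptions are a few duplicated genes of which 1 copy is used broadly and the other mainly in the germ line, as for RpL22-like and RpS5b. Lower ribosome production has been linked to longer life in several animals.

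The values are MAS5 signals, 1 per probe set on a linear scale, which the authors scaled so that each array has the same trimmed mean. A probe set was kept when both arrays of at least 1 line and sex reached a signal of 50, and this left 12518 of 18769 probe sets and all 40 members. Replicate arrays of a group correlated at r = 0.964 to 0.985 on log2 signal. The summed ovary markers lay between 120 and 496 on male arrays and between 44275 and 82716 on female arrays, and the summed testis markers between 17175 and 40018 on male arrays and between 604 and 1180 on female arrays. Of the genes next to the insertions, mub was lower in mub males by limma (log2 difference -0.75, adjusted p = 0.0342) and in mub females (-1.55, adjusted p = 0.00319), and pyd was lower in pyd females (-0.90, adjusted p = 0.0336) but passed no test in pyd males (-0.39, adjusted p = 0.057). The esg gene was not called in esg males (-0.10, adjusted p = 0.923) or esg females (0.61, adjusted p = 0.0801). The crol, CG10990 and CG9238 genes are not given here. Array controls gave 3′ to 5′ log2 ratios of 0.75 to 1.67.

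Single-copy ribosomal protein genes gave high signals on every array, between 7976 and 25443. The 40 members together held 2.81 to 3.97% of the summed signal of an array. The arrays were first summarised by the median log2 signal of the 26 single-copy genes. It was 14.26 and 14.15 in pyd males, against 13.56 and 13.77 in control males, and both pyd male arrays stood above all 14 other male arrays. In pyd females it was 14.08 and 13.64, against 13.78 and 13.58 in control females, so that the groups overlapped. Both mub female arrays, at 13.92 and 14.05, lay above both control female arrays.

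**Figure D1:**
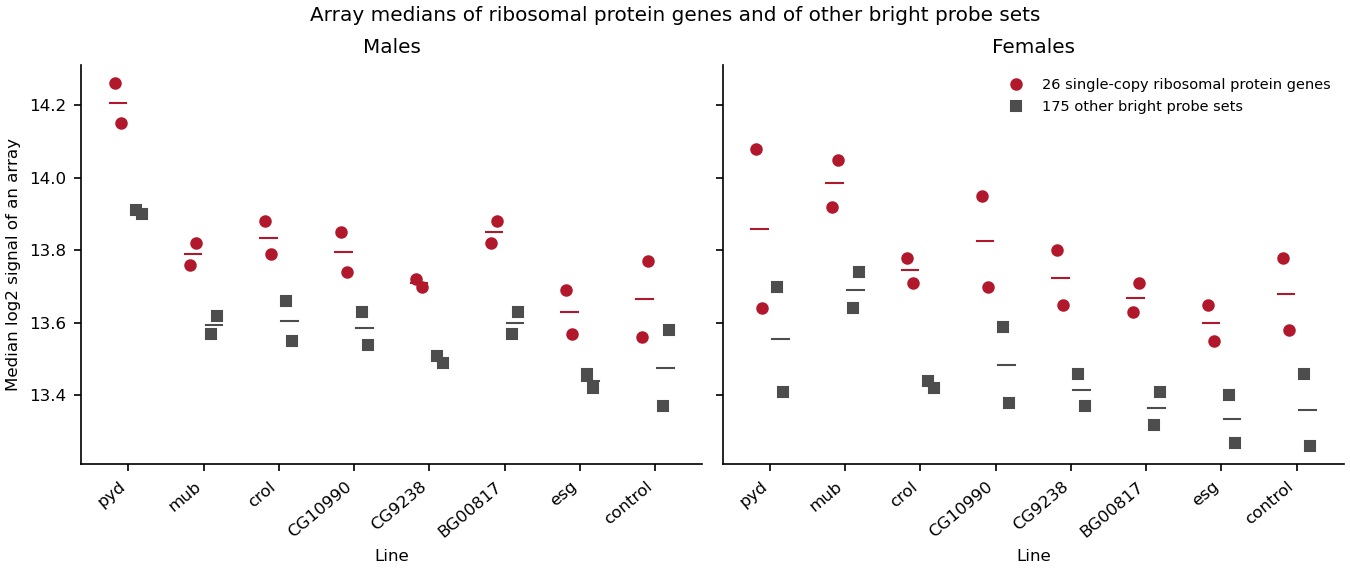
Median log2 signal of each array over the 26 single-copy ribosomal protein genes (red circles) and over 175 other bright probe sets (grey squares), by line, males and females apart; bars are the mean of the 2 arrays. The pyd male arrays, at 14.26 and 14.15 for the ribosomal protein genes, are the highest of the male arrays, and the other bright probe sets are also highest there, at 13.91 and 13.90.

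Among males the lines differed in ribosomal protein gene signal at the looser of the 2 thresholds only. An F-test over the 7 lines by limma called 29 of 40 members at an adjusted p of at most 0.05, where 27.3% of all probe sets were called, and 0 of 40 at 0.001, where 1.69% were. The methods' analysis of variance on untransformed signal also called 0 at 0.001, and 36 members had an unadjusted p under 0.05. The smallest adjusted p was that of RpL37-1 (0.0108). The count of 29 fell to between 9 and 18 when 1 array was left out of mub, CG9238, BG00817, esg or pyd males, or when crol male replicate 2 was. Set against the control line by line, nearly all calls were in pyd males. Compared with control males, 28 of 40 members were higher in pyd males and 2 were lower at an adjusted p of at most 0.05, where 8.8% of all probe sets were called, 4.23% higher and 4.56% lower. The median difference of the 40 members was 0.50 on the log2 scale, and that of all kept probe sets was -0.05.

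Both subunits moved. All 10 single-copy genes of the small subunit and 15 of 16 of the large subunit rose in pyd males, with median differences of 0.57 and 0.52. The 25 that rose did so by 0.42 to 0.69 on the log2 scale, 1.34-fold to 1.61-fold, with adjusted p between 0.00454 and 0.0485, and each of them was above both control arrays on both pyd arrays. RpL27 was the exception among the 26 and is named for that, after its values were seen. Its signal was 19368 and 12758 in pyd males, against 13409 and 15386 in control males, so that the pyd arrays lay on both sides of the controls (log2 difference 0.13, adjusted p = 0.702). Of all kept probe sets, 21.0% lay above both controls on both pyd arrays. Of the 175 other bright probe sets, described below, 92.6% did.

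RpL37A, a large subunit protein whose gene lies on 2L, gave the largest rise. Its signal was 20215 and 16980 in pyd males, against 10536 and 12582 in control males (log2 difference 0.69 ± 0.12, SE; adjusted p = 0.00674). RpL37-1, the X-linked member of the RpL37 pair, had 15545 and 15494 in pyd males, against 8991 and 10447 in control males (0.68 ± 0.10, adjusted p = 0.00352). For both genes the groups were well apart, and no other male line reached the pyd values. RpS27A is made as a fusion of ubiquitin with the small subunit protein and so also feeds the ubiquitin pool. Its signal was 21979 and 21213 in pyd males, against 12950 and 14898 in control males (0.64 ± 0.10, adjusted p = 0.00466).

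RpL3, which lies close to the peptidyl transferase centre of the large subunit, had 19523 and 19429 in pyd males, against 11872 and 13503 in control males (0.62 ± 0.10, adjusted p = 0.00454). The other 2 probe sets of RpL3, both much dimmer, did not follow it, at -0.07 and -0.17, and the mean of its 3 probe sets differed by 0.13 (adjusted p = 0.768). RpS29 has a second bright probe set, which differed by 0.63 (adjusted p = 0.0102), and a dim one at -0.20. RpL36A had 17674 and 17489 in pyd males, against 10850 and 12352 in control males (0.60 ± 0.10, adjusted p = 0.0048). The stalk proteins, which recruit elongation factors to the ribosome, rose with the body of the subunit. RpLP0, RpLP1 and RpLP2 were higher 1.40-fold, 1.43-fold and 1.37-fold in pyd males (adjusted p = 0.0187, 0.0108 and 0.0251). These 3 were picked for their role after the values were seen.

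The rise in pyd males was shared by other probe sets of the same brightness. Of 175 kept probe sets with a mean log2 signal of at least 13 that map to no member, 107 were higher and 0 lower in pyd males, with a median difference of 0.46, against 0.50 for the 40 members. Their annotation is incomplete: 96 have 1 gene symbol, 8 several and 71 none, so that further ribosomal protein genes may be among them. Array by array, the median of the single-copy members minus that of the bright probe sets was 0.35 and 0.25 in pyd males, against 0.19 and 0.18 in control males. When each array was centred on its bright probe sets, 1 of 40 members was higher in pyd males (RpL37-1, log2 difference 0.25, adjusted p = 0.0456) and 4 were lower, and the median difference of the members was 0.07. This alternative was added after the data were seen.

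With quantile normalization, which gives every array the same distribution of signals, 0 of 40 members were higher and 0 lower in pyd males by limma, 6 had an unadjusted p under 0.05, and the median difference was 0.02. Centring each array on its median kept 28 members higher and 1 lower, with a median of 0.60. The count of 28 also rested on 1 control array. Without control male replicate 1, whose members were the dimmer of the 2, it was 1, with a median difference of 0.41, while leaving out any other array gave 20 to 28.

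**Figure D2:**
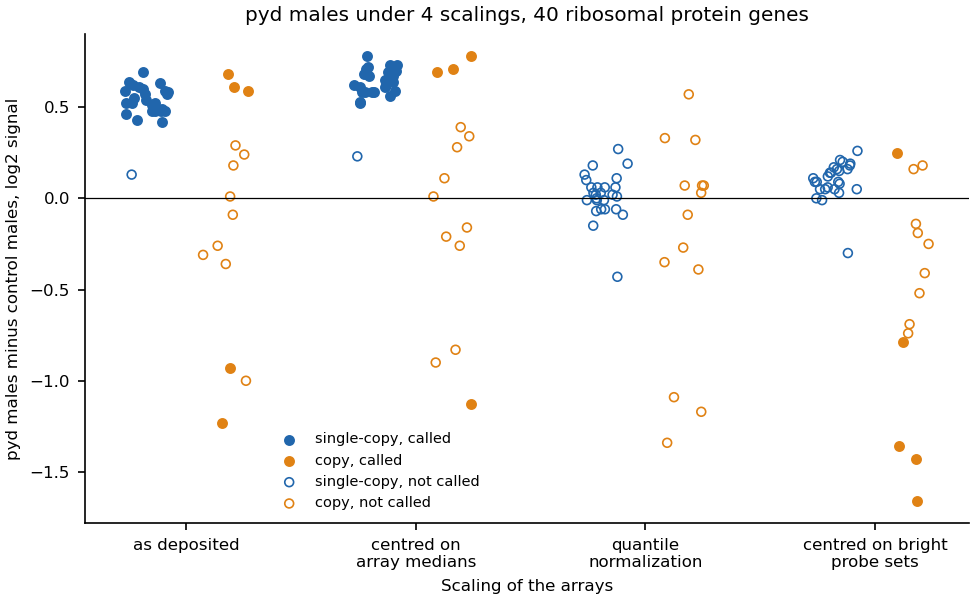
Log2 difference of pyd males minus control males for each of the 40 genes under 4 scalings of the arrays; filled points passed an adjusted p of 0.05, blue marks single-copy genes and orange copies. The single-copy genes stand around 0.53 as deposited and around 0.02 after quantile normalization, and the lowest copies stay low under all 4.

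Markers of several tissues that are abundant in the fly moved in pyd males as well, and their part in the result was not tested. Gut digestive enzymes, of which 3 of 6 were higher and 0 lower, summed to 50206 and 49207 in pyd males, against 32325 and 35755 in control males. Fat body genes summed to 21069 and 20103 in pyd males, against 14455 and 14975 in control males, with 2 of 5 higher and 1 lower. The sum rests on a minority of this list: its median difference was -1.40, and 3 of the 5 genes were below both controls. At 0.001, 3 of the 5 were higher in females than in males, and the list median for male minus female was -5.24. In males of the other 6 lines this list also had a median below 0, from -0.62 in crol to -1.26 in CG10990, with 1 gene higher in each. Accessory gland genes summed to 55788 and 55265 in pyd males, against 44509 and 44091 in control males, with 2 of 8 higher and 0 lower. Muscle genes had 0 of 8 higher and 1 lower, 0 of 10 ovary, 0 of 5 neuron, 0 of 2 haemocyte and 0 of 1 eye genes were called, and the 3′ to 5′ log2 ratio was 1.21 and 1.13 in pyd males, against 0.89 and 1.00 in control males. The gut and accessory gland counts moved with the scaling. With quantile normalization 2 of 6 gut and 0 of 8 accessory gland genes were higher, with medians of 0.09 and 0.11. Centred on bright probe sets 1 of 6 gut genes was higher, with a median of 0.15. Of 8 accessory gland genes 0 were then higher and 2 lower, with a median of -0.15. With arrays centred on their medians 3 of 6 gut and 3 of 8 accessory gland genes were higher.

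In the other 6 lines male ribosomal protein genes stayed close to the control. The median difference of the 40 members was 0.18 in crol, 0.15 in BG00817, 0.13 in CG10990, 0.12 in mub, 0.05 in CG9238 and -0.05 in esg males. By limma, 1 member was called in crol males, where 12.9% of all probe sets were called, and that was a copy, RpL10Aa. None was called in mub, CG10990, CG9238, BG00817 or esg males, where 1.29%, 2.89%, 2.84%, 5.6% and 1.22% of all probe sets were called. At an unadjusted p under 0.05 there were 3, 2, 3, 6 and 3 members in these 5 lines. The differences of the 26 single-copy members spanned 0.04 to 0.46 in crol males and 0.03 to 0.40 in CG10990 males, and less in the other 4 lines, as in BG00817 males (0.10 to 0.30) and esg males (-0.13 to 0.12).

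**Figure D3:**
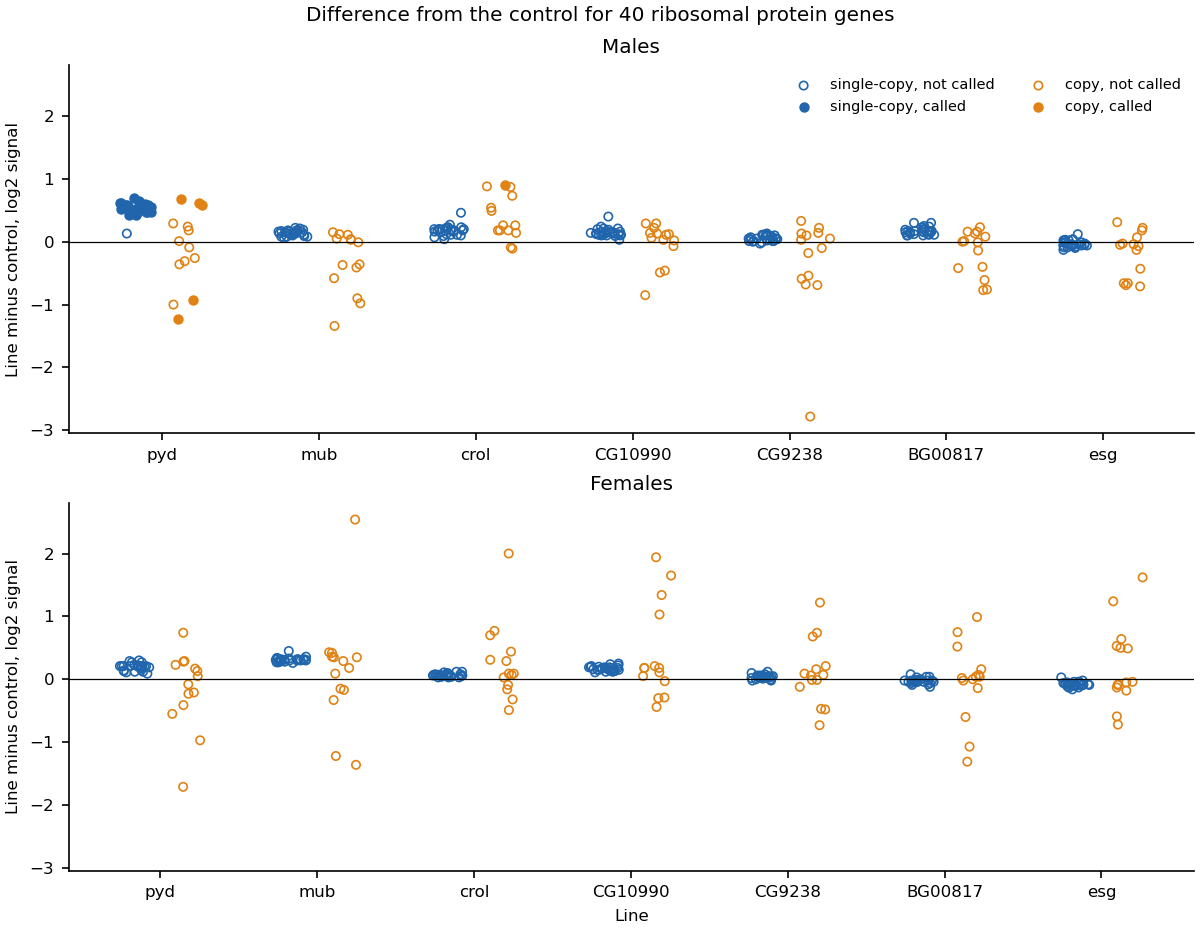
Log2 difference of each line from the control for the 40 genes, males above and females below; blue marks the 26 single-copy genes, orange the 14 copies, and filled points passed an adjusted p of 0.05. Single-copy genes spread less than the copies and are highest in pyd males; 6 copies were under the floor of 50 on most or all female arrays, where differences have little meaning.

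The copies of duplicated genes spread more widely than the single-copy set in males. In pyd males 3 of 14 rose, 2 fell and 9 were not called, with a median of -0.04. The 3 that rose, RpL37-1, RpS28b and RpL10Ab, have high signal in both sexes. RpS28b had 20918 and 21607 in pyd males, against 12750 and 15199 in control males (0.61 ± 0.11, adjusted p = 0.00741), and RpL10Ab, the broadly used copy of a large subunit gene, had 18123 and 18025 in pyd males, against 11208 and 12826 in control males (0.59 ± 0.10, adjusted p = 0.00538). Their partners RpS28a and RpL10Aa differed by 0.29 (adjusted p = 0.87) and 0.24 (adjusted p = 0.592).

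The 2 that fell, RpS5b and RpL22-like, are germ line copies. The copies RpL10Aa, RpS10a, RpS19b and RpS28-like, which were higher in males than in females, were not called in pyd males. RpS5b, on 3R, had 340 and 310 in pyd males, against 510 and 1140 in control males (-1.23 ± 0.30, adjusted p = 0.0293). RpL22-like had 204 and 245 in pyd males, against 350 and 516 in control males (-0.93 ± 0.22, adjusted p = 0.03). RpL37-2 had 170 and 140 in pyd males, against 214 and 444 in control males, and did not pass (0.50-fold, adjusted p = 0.0579). In all 3 genes both pyd arrays lay below both controls, and in all 3 control male replicate 2 was the higher control. Without that array RpS5b differed by -0.65 (adjusted p = 0.124) and RpL22-like by -0.64 (adjusted p = 0.214), so that neither was called. With quantile normalization RpS5b differed by -1.17 (adjusted p = 0.0529) and RpL22-like by -1.09 (adjusted p = 0.0696), and with arrays centred on their medians RpL22-like differed by -0.83 (adjusted p = 0.0539).

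In the other insertion lines RpS5b had 296 and 307 in mub males, 403 and 444 in CG10990 males, 424 and 527 in CG9238 males, 424 and 480 in BG00817 males and 484 and 449 in esg males, against 510 and 1140 in control males, and none of these 5 lines passed (adjusted p = 0.0678 in mub males). In crol males it stood at 611 and 813. For RpL22-like and RpL37-2, too, crol males were the highest of the insertion lines: 463 and 500 for RpL22-like and 370 and 509 for RpL37-2.

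In crol males the 14 copies had a median difference of 0.26 and the 26 single-copy genes one of 0.18, with 64.3% and 53.8% of them above both controls on both arrays, against 27.0% of all kept probe sets. The 175 other bright probe sets had a median of 0.14 in crol males, with 43.4% above both controls. Copies were not tested against single-copy genes. RpL10Aa, on 3R, had 969 and 1131 in crol males, against 549 and 571 in control males (0.90 ± 0.22, adjusted p = 0.0297), and was the only member called among the 7.72% of probe sets higher in this line. It was not called with arrays centred on bright probe sets (0.78, adjusted p = 0.0643), without crol male replicate 2 (0.79, adjusted p = 0.174), without control male replicate 1 (0.87, adjusted p = 0.102) or without control male replicate 2 (0.93, adjusted p = 0.157). RpS10a had 162 and 234 in crol males, against 116 and 96 in control males (0.88 ± 0.32, adjusted p = 0.0949). RpS19b had 360 and 673 in crol males, against 248 and 291 in control males (0.87 ± 0.27, adjusted p = 0.0577), and RpS28-like had 302 and 368 in crol males, against 263 and 153 in control males (0.73 ± 0.28, adjusted p = 0.114). In each of these 4 genes both crol arrays were above both controls, but only RpL10Aa passed.

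Testis markers were also high on the crol male arrays. They summed to 31734 and 40018 in crol males, against 23806 and 20367 in control males, with 3 of 13 higher (sa, ocn and can) and 0 lower. In pyd males they summed to 23408 and 21371, with 0 higher and 1 lower (twe, a Cdc25 phosphatase of male meiosis, -0.98, adjusted p = 0.0314). In crol males 3 of 6 gut and 3 of 8 muscle genes were lower. Whether the copies follow the amount of RNA from any of these tissues was not tested.

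**Figure D4:**
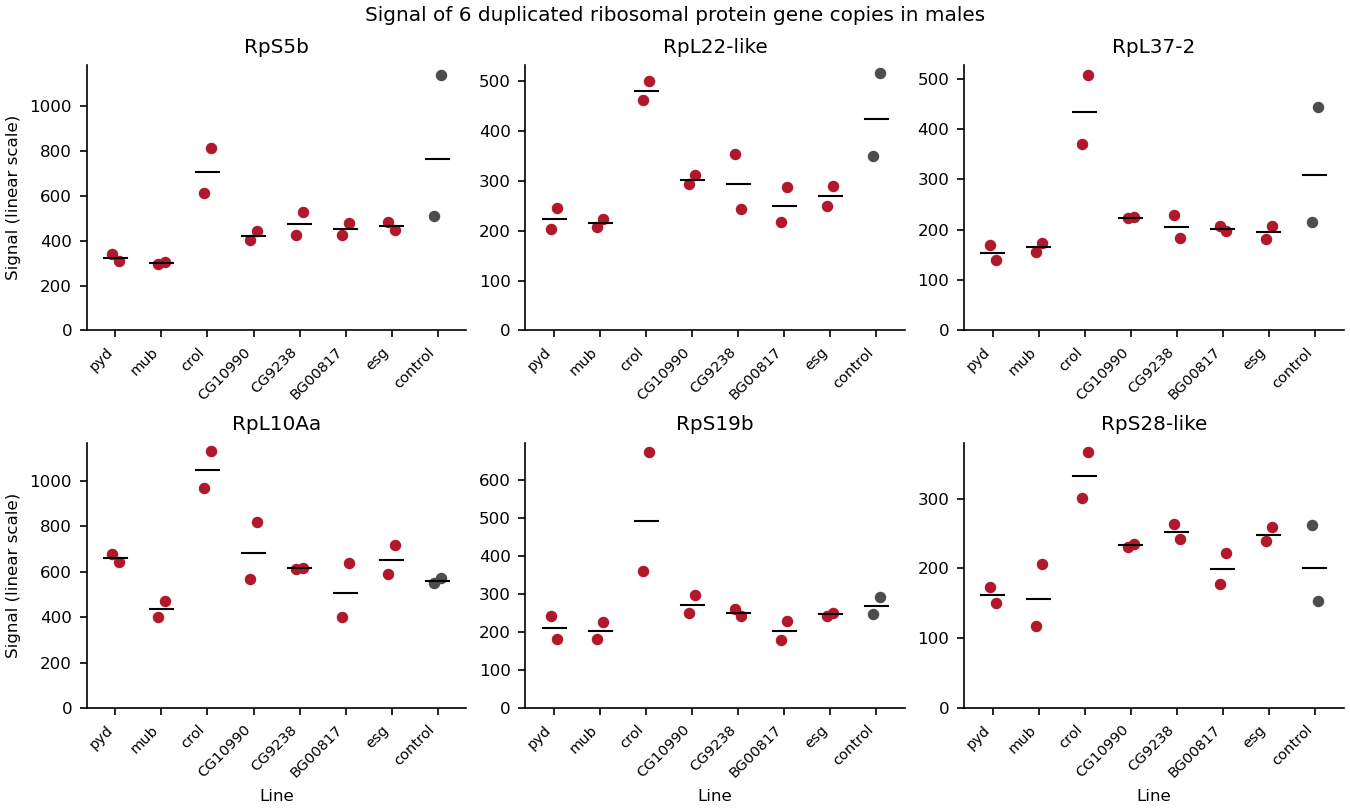
MAS5 signal of 6 duplicated ribosomal protein gene copies on each male array, by line, on a linear axis that starts at 0; points are arrays and bars the geometric mean of the 2, with the control in grey. The crol line has the highest geometric mean in 5 of the 6, and for RpS5b the control has; control male replicate 2 is far above replicate 1 for RpS5b (1140 and 510).

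One low value stood out among the copies. RpS28a had 50.4 and 5.6 in CG9238 males, against 128 and 103 in control males, and no other male array was below the 103 of control male replicate 2. One of the 2 arrays is under the floor of 50, and the difference of -2.78 ± 0.74 did not pass (adjusted p = 0.0884). The remaining copies, RpL24-like, RpL7-like and RpL34a, showed no called difference from the control in any male line. RpL24-like and RpL7-like resemble yeast proteins that act in assembling the large subunit rather than in the finished ribosome. RpL34a is a broadly expressed large subunit gene.

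In females no line changed ribosomal protein gene signal past the threshold. The F-test called 1 of 40 members at an adjusted p of at most 0.05, where 23.5% of all probe sets were called, and 0 at 0.001, where 1.17% were. That member was RpL24-like (adjusted p = 0.0373), and it was also the 1 member with an unadjusted p under 0.05. RpL24-like had 2503 and 2581 in BG00817 females and 2648 and 2483 in esg females, against 3895 and 3835 in control females. The differences were -0.60 ± 0.15 and -0.59 ± 0.15, and neither passed on its own (adjusted p = 0.0598 and 0.0603). Both arrays were also below both controls in crol (2859 and 2666), CG9238 (2764 and 2834) and CG10990 females (3383 and 2896). The pyd and mub arrays, between 2944 and 4296, were on both sides of the controls. RpS19b and RpS28-like also had F-tests among the smallest p-values, but both were under the floor on every female array, so no difference is given for them.

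Against the control, 0 of 40 members were called in any of the 7 lines in females, by limma or by the methods' analysis of variance. The shares of all probe sets called were 3.9% in pyd, 24.1% in mub, 2.68% in crol, 1.19% in CG10990, 1.85% in CG9238, 3.95% in BG00817 and 3.99% in esg females. At an unadjusted p under 0.05 there were 1, 8, 1, 0, 1, 1 and 1 members in these lines. The contrast was widest in mub females, with 10.2% of all probe sets higher and 13.9% lower, and no member was called.

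Single-copy members still leaned upward in mub females. All 26 differed by 0.26 to 0.45, with a median of 0.31, and the other bright probe sets had the same median of 0.31. RpS20 had 17603 and 18724 in mub females, against 15337 and 13990 in control females (0.31 ± 0.13, adjusted p = 0.102). RpS12, a small subunit protein known in flies for its part in cell competition, had 15355 and 17006 in mub females, against 13906 and 12138 in control females (0.31 ± 0.12, adjusted p = 0.0904). For both genes the mub arrays lay above the controls. With quantile normalization the median of the members in mub females was -0.02, and centred on bright probe sets it was -0.03.

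In pyd females the median difference was 0.20, and the 2 arrays disagreed. RpS15, which sits near the decoding centre, had 15958 and 12496 in pyd females, against 13326 and 11263 in control females (0.20 ± 0.15, adjusted p = 0.503). RpL41, the smallest of the ribosomal proteins, had 16731 and 14979 in pyd females, against 15639 and 13494 in control females (0.12 ± 0.14, adjusted p = 0.685). Without pyd female replicate 1 the median of the 40 members fell to 0.01, and without replicate 2 it was 0.39. The other 5 lines had female medians of 0.17 in CG10990, 0.07 in crol, 0.04 in CG9238, -0.02 in BG00817 and -0.08 in esg.

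Whether the line effects differed between the sexes was tested with the line by sex terms over all 32 arrays. The F-test called 0 of 40 members at 0.001, where 0.591% of all probe sets were called, and 1 at 0.05, where 14.6% were, and 3 members had an unadjusted p under 0.05. The 1 member was RpS5b (adjusted p = 0.0285). The rise of the single-copy genes was larger in pyd males than in pyd females by a median of 0.36, with a range of -0.10 to 0.51, and 13 of the 40 members had an unadjusted p under 0.05 for it, but no single-copy gene passed after adjustment, the smallest adjusted p being 0.121 for RpL3. The pyd effect on these genes is therefore not shown to be limited to males.

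For the lines' own terms at an adjusted p of at most 0.05, RpS5b was the 1 member called for pyd, where 1.81% of all probe sets were called, and for mub, where 4.14% were and 3 members had an unadjusted p under 0.05. Its male effect was lower than its female effect by -1.40 ± 0.34 in pyd (adjusted p = 0.0436) and by -1.52 ± 0.34 in mub (adjusted p = 0.0228). In females RpS5b had 11279 and 8582 in pyd and 9876 and 9982 in mub, against 9108 and 8438 in the control, a difference of 0.17 in pyd (adjusted p = 0.521) and 0.18 in mub (adjusted p = 0.328). No member was called for crol, CG10990, CG9238, BG00817 or esg, where 2.53%, 0.232%, 0.671%, 0.383% and 0.639% of all probe sets were called, and 1, 2, 2, 1 and 0 members had an unadjusted p under 0.05. The RpS5b term was negative in these lines too, against the same control arrays. It was -0.14 in crol, -1.03 in CG10990, -0.78 in CG9238, -0.79 in BG00817 and -0.61 in esg.

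Males and females differed little in single-copy ribosomal protein genes and much in the copies. At an adjusted p of at most 0.001 over the 8 lines, the male arrays were higher for 8 members and the female arrays for 3, where 46.2% of all probe sets were higher in males and 37.9% higher in females. Of the 26 single-copy genes 1 was called, and their male minus female differences ran from -0.08 to 0.20 on the log2 scale with a median of 0.03. The direction of this small shift depends on the scaling: the median was 0.24 with arrays centred on their medians, -0.06 with quantile normalization and -0.11 centred on bright probe sets. The calls at 0.001 moved too. With arrays centred on their medians 22 of 26 were higher in males and 0 in females. With quantile normalization 1 was higher in males and 5 in females, and centred on bright probe sets 0 and 9. The 1 gene called on the signals as deposited was RpL3 (0.20 ± 0.04, adjusted p = 0.000194), and the mean of its 3 probe sets gave -0.23. RpL29 had the lowest difference of a single-copy gene (-0.08 ± 0.04, adjusted p = 0.056).

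Of the 14 copies, 7 were higher in males and 3 in females. RpL10Aa ranged over 400 to 1131 on the 16 male arrays, with a median of 615, and was under the floor of 50 on all 16 female arrays, which puts males at least 12.5-fold higher than females (adjusted p = 7.55e-16). RpS28-like was under the floor on all 16 female arrays too, with males at least 4.34-fold higher (adjusted p = 2.62e-13). The same held for RpL22-like, at least 5.92-fold higher (adjusted p = 2.99e-11), RpS19b, at least 5.14-fold higher (adjusted p = 1.05e-13), and RpS10a, at least 1.89-fold higher (adjusted p = 1.81e-11). These bounds, and those that follow, raise each female signal under 50 to the floor. The adjusted p-values are from limma on the signals without this step and do not test the bounds. The genes under the floor on all 16 female arrays passed the filter only through male groups. The filter therefore favoured this direction for them, and their p-values are not independent support for it. RpL37-2, under the floor on 11 female arrays, and RpS28a, under it on 6 female and 1 male array, were at least 4.22-fold and 1.84-fold higher in males (adjusted p = 6.34e-12 and 0.000585).

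RpS5b ran the other way. It had 296 to 1140 on the 16 male arrays and 8120 to 11279 on the 16 female arrays, so that the sexes did not overlap and females were 19.8-fold higher (male minus female -4.31 ± 0.08, adjusted p = 5.97e-19). RpL7-like was 2.14-fold higher in females (-1.10 ± 0.05, adjusted p = 4.52e-14), with 1175 to 1654 on male arrays and 2515 to 3564 on female arrays. RpL34a was 1.18-fold higher in females (-0.24 ± 0.06, adjusted p = 0.000988), and RpL24-like did not pass at 0.001 (-0.19 ± 0.08, adjusted p = 0.038). The broadly used copies RpL10Ab, RpL37-1 and RpS28b differed by 0.02, -0.01 and 0.08, and none was called.

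**Figure D5:**
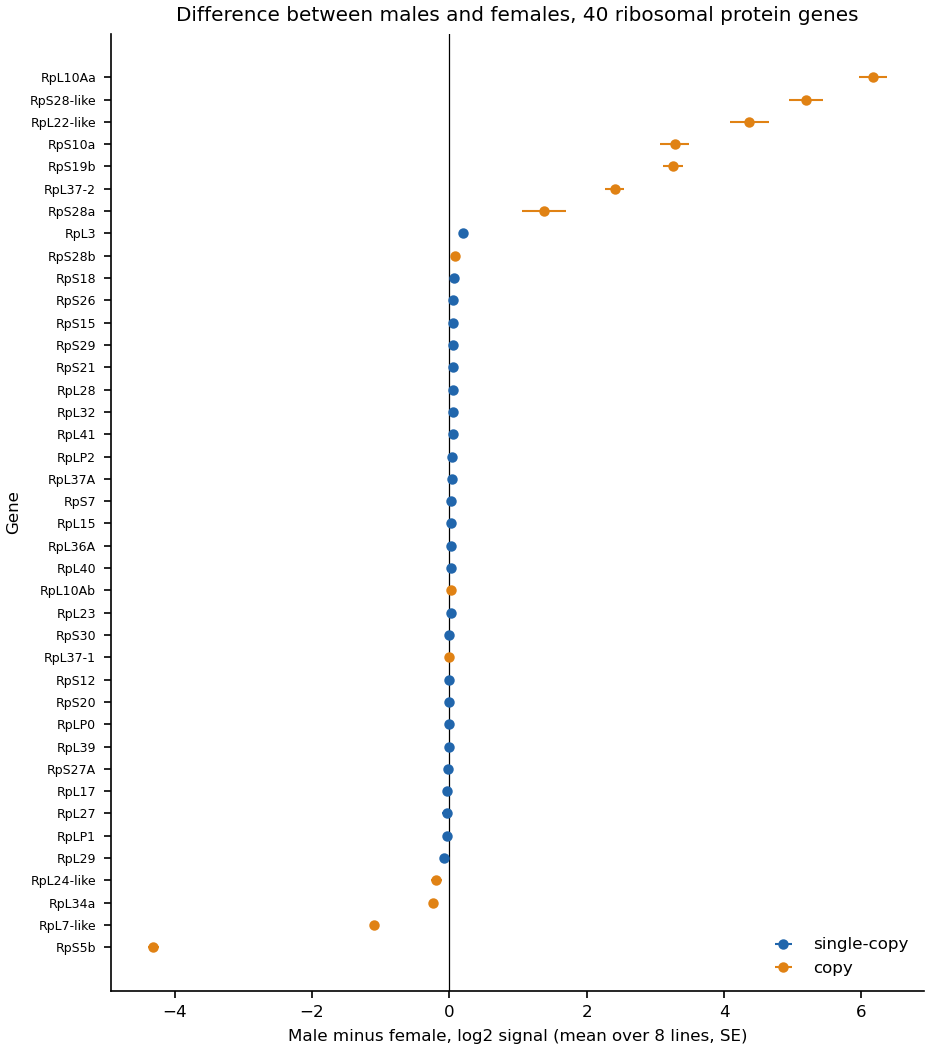
Male minus female difference of log2 signal for the 40 genes, as the mean over the 8 lines with its standard error, single-copy genes in blue and copies in orange. The single-copy genes lie between -0.08 and 0.20, while the copies lie between -4.31 for RpS5b and 6.17 for RpL10Aa, a value that rests on female signals under the floor.

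Genes that make, regulate or use ribosomes were called in pyd males at shares near or under those of all probe sets, 4.23% higher and 4.56% lower, or in counts of 1. Of 22 translation initiation genes 1 was higher and 0 lower, with a median of 0.06. The 1 was eIF4A, the helicase that unwinds messenger RNA for the small subunit, at a mean signal of 16943 in pyd males and 11546 in control males (0.56, adjusted p = 0.0157). None of 8 elongation and termination genes was called (median 0.16, 3 with an unadjusted p under 0.05), and none of 6 RNA polymerase I genes was (median -0.03, 1 with an unadjusted p under 0.05). Of 25 ribosome biogenesis genes 0 were higher and 1 lower (Nnp-1, -0.54, adjusted p = 0.0221), with a median of -0.05. Of 14 regulators of ribosome production 0 were higher and 1 lower, with a median of -0.28, and this was Tsc1, a repressor of Tor signalling (-0.40, adjusted p = 0.0363). Of 69 mitochondrial ribosomal protein genes, which are not part of the cytosolic ribosome, 2 were higher and 3 lower, with a median of 0.00. The single calls depended on the scaling. With quantile normalization 0 initiation, 0 biogenesis and 0 regulator genes were called. With arrays centred on their medians 0 biogenesis and 0 regulator genes were called, and 1 initiation and 2 of 8 elongation and termination genes were higher. Centred on bright probe sets, where 44.2% of all probe sets were lower in pyd males, 10 of 22 initiation, 2 of 8 elongation and termination, 15 of 25 biogenesis, 4 of 6 polymerase, 9 of 14 regulator and 36 of 69 mitochondrial genes were lower.

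In mub females most of the listed ribosome biogenesis and RNA polymerase I genes had lower whole-fly signal, and no ribosomal protein gene was called. Of 25 ribosome biogenesis genes 18 were lower and 0 higher, with a median of -0.46, and of 6 RNA polymerase I genes 5 were lower and 0 higher, with a median of -0.56, where 13.9% of all probe sets were lower. Nop56, a core protein of the particles that methylate ribosomal RNA, differed by -0.46 (adjusted p = 0.007), and Polr1B, the second largest subunit of RNA polymerase I, by -0.73 (adjusted p = 0.00484). Polr1F and Polr1C, further subunits, differed by -0.84 (adjusted p = 0.00446) and -0.51 (adjusted p = 0.00679). Of 69 mitochondrial ribosomal protein genes 42 were lower and 0 higher, with a median of -0.40. The 3 lists had medians below 0 under all 4 scalings, and the polymerase, biogenesis and mitochondrial lists had 4 to 6, 14 to 22 and 23 to 61 members lower. The lowest mitochondrial count was that with quantile normalization. These lists differ between the sexes. At 0.001, 23 of 25 biogenesis, 6 of 6 polymerase and 65 of 69 mitochondrial genes were higher in females, where 37.9% of all probe sets were. Their medians for male minus female were -2.03, -1.77 and -0.81. These lists also had medians below 0 in females of every other line, against the same control arrays. In pyd females the biogenesis, polymerase and mitochondrial medians were -0.14, -0.25 and -0.19, with 0 genes lower. In CG10990, CG9238 and BG00817 females the medians lay between -0.06 and -0.13, and 1 mitochondrial gene was lower in BG00817. In crol and esg females biogenesis genes had medians of -0.28 and -0.26, with 0 and 3 of 25 lower. Polymerase genes there had medians of -0.27 and -0.25, with 1 of 6 lower in each of these lines. Mitochondrial genes had medians of -0.20 and -0.27, with 0 and 8 of 69 lower. Of all 12518 probe sets, 107 were lower in crol and 197 in esg females. The summed ovary markers were 52519 and 68527 in mub females, against 56820 and 44275 in control females, with 0 of 10 higher and 3 lower, and both of 2 haemocyte, 2 of 6 gut, 1 of 5 fat body and 1 of 5 neuron genes were higher. Their part in the result was not tested.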

How the data were processed

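Total RNA of whole 42-day-old flies of 8 lines was hybridised to 32 Affymetrix Drosophila arrays, 2 for each line and sex. The deposited values are MAS5 signal intensity values, which the authors scaled by array; the stated target is a median of 500, and in the table the mean trimmed by 2% at each end was 500 on every array. Signals were taken as log2. Array controls and probe sets under a signal of 50 were left out as described above. Lines were compared within each sex (16 arrays) with limma 3.58.1 in R 4.3.3, and line by sex and male minus female terms over 32 arrays, with Benjamini-Hochberg adjustment over all kept probe sets. Gene symbols came from the platform table and RefSeq release 6. Genes named were those of smallest F-test p (6 per sex), up to 3 called on each side per line and sex, the 5 at each end of male minus female, the 5 of smallest line by sex p, all copies, and up to 4 called genes of each other list. The members and lists (translation, biogenesis, RNA polymerase I, regulators, mitochondrial ribosomal proteins, tissue markers) were chosen with earlier results of these data known. Alternatives changed the scaling, filter, offset, variance model, replicate block, test, probe set choice and arrays used. The models were tested on simulated data.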

Additional observations from a re-analysis of the deposited data

Results flagged for a closer look

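The line effect on RpS5b, a germ line copy of a small subunit gene, was called as different between males and females in mub and in pyd by the tests of the difference itself. In mub the male effect minus the female effect was -1.52 ± 0.34 on the log2 scale (SE; limma, adjusted p = 0.0228), with signals of 296 and 307 in mub males, against 510 and 1140 in control males. In pyd it was -1.40 ± 0.34 (adjusted p = 0.0436). The other lines shared the control arrays and the negative sign, from -0.14 in crol to -1.03 in CG10990, and none was called. Over 42 alternatives the mub value lay between -2.10 and -0.94, was called in 36 and was not in 6, and the pyd value lay between -1.98 and -0.82, was called in 14 and was not in 28. Both lost their call without control male replicate 2, at -0.94 (adjusted p = 0.055) for mub and -0.82 (adjusted p = 0.125) for pyd.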

How the results depend on the processing

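With quantile normalization 2 members were called against the control in females and 2 in males, 3 varied among male lines at 0.05, 0 were higher and 0 lower in pyd males, and the median differences were -0.03 in pyd, -0.02 in mub and -0.02 in CG10990 females and 0.02 in pyd, 0.00 in mub, 0.04 in crol, 0.01 in CG10990 and 0.01 in BG00817 males. With arrays centred on their medians 1 member was called in females, 1 was lower in pyd males, 34 differed between the sexes against 11, and the male medians were 0.60 in pyd, 0.22 in mub and 0.26 in BG00817. Centred on bright probe sets 1 member was called in females and 8 in males, 0 varied among female and 8 among male lines at 0.05, 1 was higher and 4 lower in pyd males, 21 differed between the sexes, and the medians were 0.00 in pyd and -0.03 in mub females and 0.07 in pyd, 0.00 in mub, 0.06 in crol, 0.02 in CG10990 and 0.02 in BG00817 males. Without the filter 0 members varied among female and 2 among male lines at 0.05, 0 were lower in pyd males and 0 had a line by sex term. A floor of 100 gave 1 call in females, an offset of 16 gave 2, and an intensity trend gave 3, with 1 member varying among male lines at 0.001. All 32 arrays in 1 fit gave 6 calls in females, 3 members varying among female and 19 among male lines at 0.05, and 1 lower in pyd males. The methods' analysis of variance gave 0 among female lines, 0 lower in pyd males and 7 line by sex terms. The mean of a gene's probe sets gave 2 among female lines and 2 line by sex terms, and without the copies there were 0 among female lines, 0 lower in pyd males, 0 line by sex terms and 1 sex difference. The causes were not tested. RpS12 and RpS20 turned to -0.01 and -0.01 in pyd males with quantile normalization, and RpL3 turned to -0.23 for male minus female with the mean of its probe sets.

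Leaving out 1 array at a time, members called against the control were 0 to 4 in females and 12 to 32 in males, those higher in pyd males 1 to 28 and lower 0 to 3, those varying at 0.05 0 to 1 among female and 9 to 29 among male lines and at 0.001 0 to 1 among male lines, those with a line by sex term 0 to 8 at 0.05 and 0 to 1 at 0.001. The male medians ran over 0.41 to 0.60 in pyd, 0.02 to 0.23 in mub, 0.07 to 0.30 in crol, 0.03 to 0.22 in CG10990, -0.07 to 0.15 in CG9238, 0.05 to 0.25 in BG00817 and -0.15 to 0.06 in esg, and the female medians over 0.01 to 0.39 in pyd, 0.19 to 0.42 in mub, -0.05 to 0.18 in crol, 0.05 to 0.30 in CG10990, -0.08 to 0.14 in CG9238, -0.13 to 0.09 in BG00817 and -0.18 to 0.03 in esg. The lowest count among male lines, 9, came without mub male replicate 1 and without esg male replicate 2. No member was lower in pyd males without control male replicate 2 or pyd male replicate 2, and 8 had a line by sex term without pyd female replicate 1. RpL24-like lost its call among female lines without either array of BG00817, CG9238, crol, esg or control females or without pyd female replicate 2. Calls in females came without either array of pyd or mub or without control female replicate 1.

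With the replicate number as a block, 26 members were higher in pyd males, 22 varied among male and 0 among female lines at 0.05, and 29 were called in males. Arrays of the same number did not deviate together (correlations of -0.08 to 0.08 in females and -0.14 to 0.24 in males). With 2 arrays a group the precision is limited by their number, and signals under 50 give bounds only.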
